A study of Mus musculus with 203 samples.

Results

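Airways of mice that breathed cigarette smoke and received dexamethasone (PBS.CS.DEX, 10 libraries) were set against airways of mice that breathed smoke without the drug (PBS.CS, 10 libraries), which are 20 of the 80 airway libraries of week 11. Libraries were chosen by sample title alone. The study models asthma, chronic obstructive pulmonary disease and the overlap of both in mice, and in it house dust mite (HDM) or PBS was combined with smoke or room air, with or without dexamethasone, and RNA was sequenced from airway and from parenchyma of the lung. Both groups were female Balb/C mice labelled 18 to 20 weeks old that received PBS by the nose and cigarette smoke on 5 days per week for 8 weeks. The groups differed in dexamethasone during week 11, and its dose, route and vehicle were not given in the sources used here. Airways were freed from parenchyma by blunt dissection, so each library mixes epithelium, smooth muscle, vessels, resident leukocytes and adhering tissue. Airways of PBS mice in room air without (PBS.AIR) and with dexamethasone (PBS.AIR.DEX), airways of mice given HDM and smoke (HDM.CS and HDM.CS.DEX) and the parenchyma of the smoke groups, with 10 libraries each and the same strain, sex and age, serve as comparators. The comparison asks what a glucocorticoid did to a smoke-exposed airway.

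Dexamethasone is a synthetic glucocorticoid. It binds the glucocorticoid receptor (Nr3c1), which enters the nucleus, raises genes near glucocorticoid response elements and represses genes driven by inflammatory factors, and it kills many lymphocytes. Cigarette smoke activates the aryl hydrocarbon and NRF2 pathways of the airway epithelium and draws macrophages, neutrophils and lymphocytes into the wall, an inflammation known clinically for its weak response to glucocorticoids.

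Total counts ran from 24455915 to 33235195 in PBS.CS and from 24553918 to 33527885 in PBS.CS.DEX, and no pair of libraries was alike enough to be one library deposited again. Levels are given in CPM, a count as a share of the TMM-scaled total of its library, and changes as log2 fold changes (log2FC) with their standard error (SE). Nothing in the labels says that libraries of a group came from separate animals, so p-values measure the spread between these libraries. Smoke exposure showed in every PBS.CS library: Ahrr, the repressor induced by the aryl hydrocarbon receptor, stood at 1.68 to 3.26 CPM in PBS.CS and at 0.194 to 0.794 CPM in air airways. Airway identity held for the club cell gene Scgb1a1 (median 40355 CPM), the ciliated cell gene Foxj1 (181.2 CPM) and the smooth muscle gene Acta2 (280 CPM), while the cartilage gene Col2a1 ran from 0.0385 to 8.83 CPM and was close to absent in part of the libraries. The alveolar gene Sftpc had a median of 7680 CPM, so parenchyma came along with the airway. The libraries also carried unequal amounts of fat: Ucp1, the uncoupling protein of brown adipose tissue, ran from 0.269 to 651 CPM in PBS.CS and from 0.0349 to 618 CPM in PBS.CS.DEX, and the first principal component of the 20 libraries held 51.5% of the variance of the most variable genes. On it, 5 treated libraries (X35, X55, X115, X175 and X195) lay beyond all untreated ones and the other 5 lay among them.

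Dexamethasone lowered far more genes by a large step than it raised. Of 18015 genes tested, 1069 (5.93%) were downregulated and 593 (3.29%) upregulated at an adjusted p under 0.05, which is 9.23% in all. At a log2FC of at most -1 there were 389 downregulated genes (2.16%), against 24 upregulated genes (0.133%) at a log2FC of at least 1. Among the lists examined, most members of the erythroid, MHC class II and dendritic cell, B and plasma cell and interferon response lists were downregulated. For T and NK cells this depended on the fit, with 33 of 35 genes downregulated in the main fit by limma. The number was 16 by edgeR's quasi-likelihood test, 20 by DESeq2 and 15 with only the 20 libraries compared in the fit. Together these lists hold only a small part of the 1069 genes. Few or no members of the glucocorticoid-induced, clock and neutrophil lists were called. Libraries of the groups did not overlap at all for 63 genes that were lower (0.35% of genes tested) and for 5 that were higher (0.0278%). The number of upregulated genes was unstable, at 322 without the PBS.CS.DEX library X35, 373 without X55, 904 without X75 and 376 without the PBS.CS library X174, and the number of downregulated genes stayed between 853 and 1220 whichever library was left out.

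**Figure D1:**
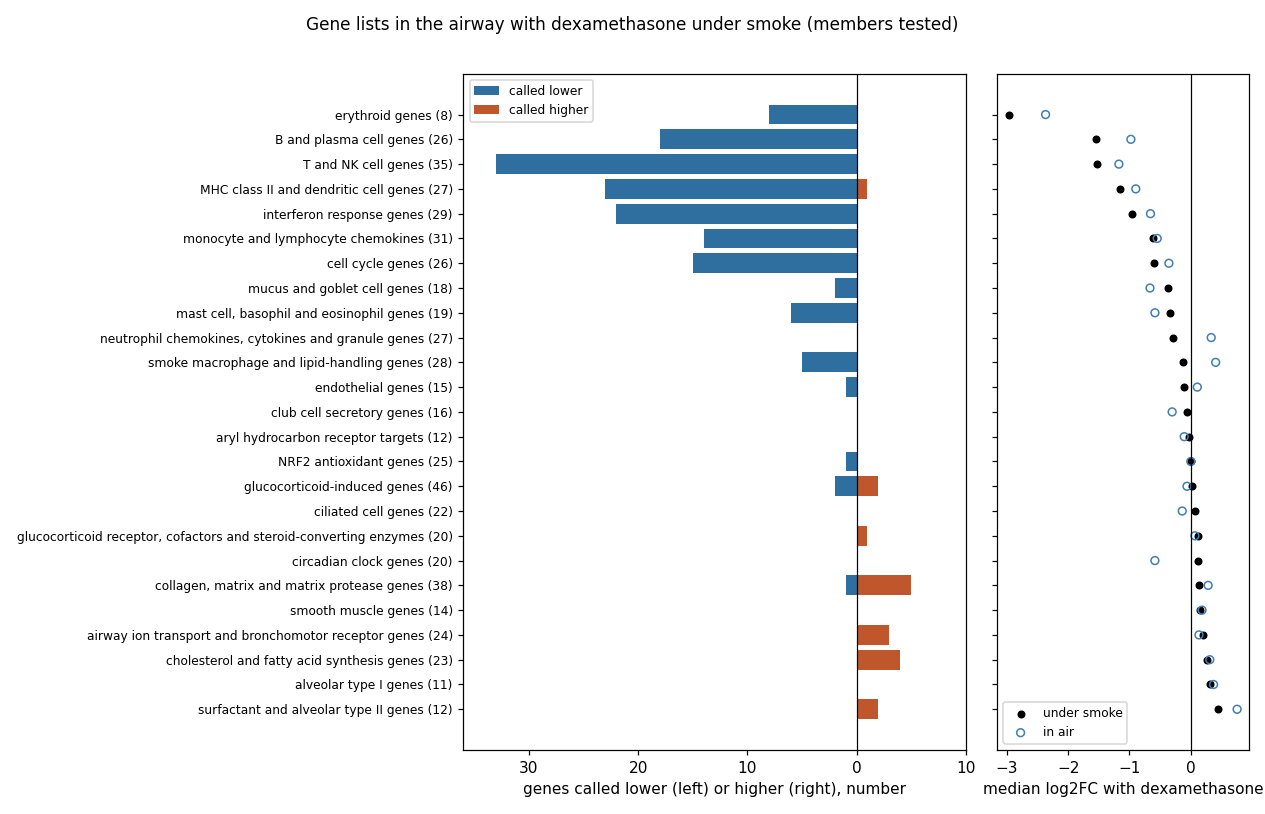
Gene lists ordered by their median change. Bars give the number of list members called lower (left) or higher (right) with dexamethasone under smoke, with the number tested in brackets, and dots give the median log2FC of the members under smoke (filled) and in air (open). Erythroid genes had the lowest median, -2.97, and 33 of 35 T and NK cell genes were called lower in the 80-library limma fit.

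Of the lists examined, red cell transcripts had the lowest median. All 8 erythroid genes tested were downregulated, none with overlapping libraries, where 5.93% of all genes were called lower and 0.35% were lower without overlap. Their median log2FC was -2.97 against 0.011 over all genes tested. Alas2 (GRCm38 chrX:150547375-150570638), which starts haem synthesis in erythroid cells, ran from 53.6 to 158.8 CPM (median 88.6) under smoke and from 5.80 to 19.2 CPM (median 10.5) with dexamethasone, a log2FC of -3.01 (SE 0.29, adjusted p = 3.69e-12). Every library of PBS.CS.DEX was below every library of PBS.CS. The adult beta globin Hbb-bs fell from a median of 5788 CPM (2928 to 6924) to 681 CPM (274 to 1446), with a log2FC of -2.93 (SE 0.40, adjusted p = 1.85e-07). Hba-a1 and Hba-a2, the alpha globins, fell by 2.88 and 2.86 on the log2 scale, and since their sequences are near identical the split between them is uncertain. Slc4a1, the band 3 anion exchanger of the red cell membrane, fell by 4.64 on the log2 scale and had at most 17 counts in any library with dexamethasone. Bpgm, the enzyme that makes 2,3-bisphosphoglycerate in red cells, moved less, with a log2FC of -0.49 (adjusted p = 2.92e-07), and its groups did not overlap either. Summed over the list, erythroid transcripts made up 5625 to 13020 CPM under smoke and 585.9 to 2824 CPM with dexamethasone. Without dexamethasone, smoke airways stood above air airways (median sum 10610 against 6195 CPM), and with it the medians of smoke and air airways were 1325 and 1442 CPM. In bulk tissue, fewer cells of a type and less RNA per cell cannot be told apart, here and in all lists that follow.

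**Figure D2:**
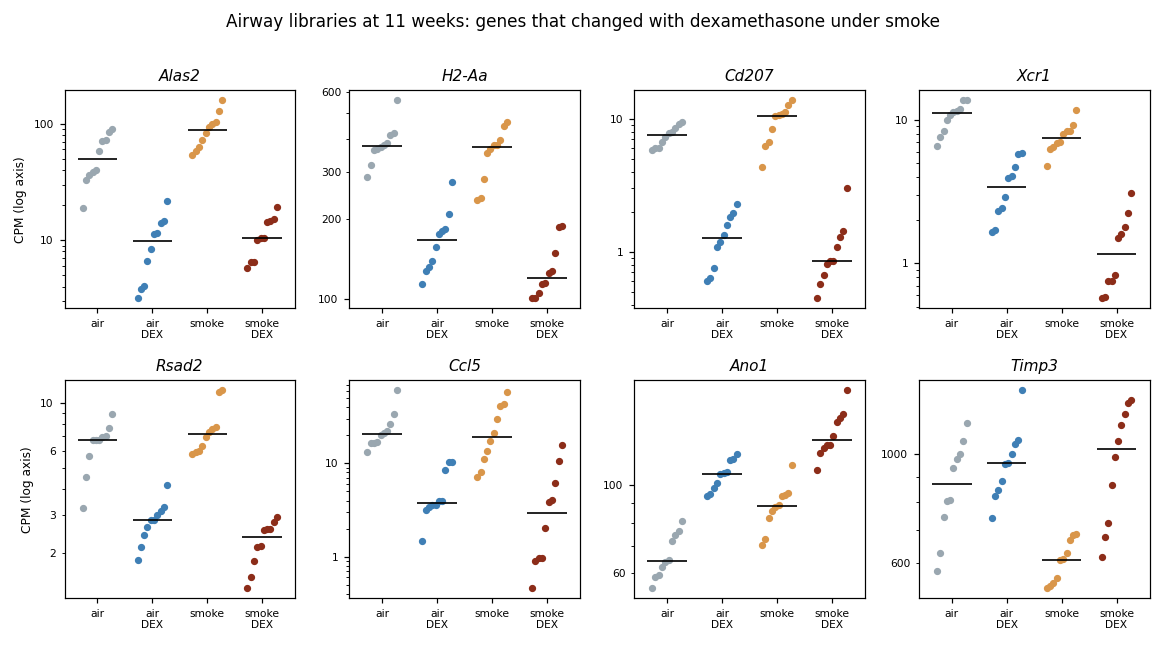
Levels of 8 genes that changed with dexamethasone under smoke, in CPM on log axes, 1 point per library and a bar at the median, for airways in air, air with dexamethasone (DEX), smoke and smoke with DEX. For Alas2, H2-Aa, Cd207, Xcr1 and Rsad2 all 10 smoke libraries with DEX lie below all 10 smoke libraries without it, while Ccl5 overlaps. Ano1 and Timp3 lie higher with DEX in most libraries.

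Genes of dendritic cells and of the machinery that presents antigen to CD4 T cells were mostly downregulated. Of 27 MHC class II and dendritic cell genes tested, 23 were downregulated, 9 of them without overlap, where 5.93% and 0.35% of all genes were. The cathepsin Ctsh was the 1 upregulated, where 3.29% of all genes were. The median log2FC was -1.15. H2-Aa (chr17:34282744-34287823), the alpha chain of the class II molecule I-A, ran from 235 to 463 CPM (median 372) under smoke and from 101 to 189.04 CPM (median 120) with dexamethasone (log2FC -1.43, SE 0.14, adjusted p = 8.67e-12). H2-Eb1, the beta chain of I-E, fell from a median of 244 to 74.5 CPM, and Cd74, the invariant chain that guides class II molecules to the endosome, from 812 to 346 CPM. Neither overlapped. Ciita, the master regulator of class II transcription, fell alike, from a median of 21.3 to 9.44 CPM (log2FC -1.15, adjusted p = 9.08e-05, no overlap).

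The genes of dendritic cells proper fell with class II. Cd207, or langerin, which marks the CD103-positive dendritic cells of the mouse airway wall, fell from 4.34 to 13.8 CPM (median 10.6) to 0.448 to 3.03 CPM (median 0.846), with a log2FC of -3.18 (SE 0.32, adjusted p = 8.67e-12). Xcr1, the chemokine receptor of cross-presenting dendritic cells, ran from 4.81 to 11.8 CPM under smoke and from 0.573 to 3.09 CPM with dexamethasone (log2FC -2.65, SE 0.31, adjusted p = 2.42e-09). Both were lower in every treated library than in any untreated one. Clec9a, the receptor by which the same cells sense dead cells, fell by 2.13 on the log2 scale, Itgae, which encodes CD103, by 1.60 and Flt3, the growth factor receptor of dendritic cell precursors, by 1.73, all without overlap. Irf8 and Batf3, transcription factors these cells need, fell by 0.97 and 1.35, with 9 of 10 treated libraries of each below all untreated ones. Cd209a, a lectin of monocyte-derived dendritic cells, changed less (log2FC -0.58, adjusted p = 0.0318), and Cd209d, of the same family, was not called (log2FC -0.51, adjusted p = 0.341). Il12b, the p40 chain of IL-12 and IL-23 that activated dendritic cells secrete, stood at 1.37 to 5.69 CPM under smoke and 0.0834 to 0.787 CPM with dexamethasone (log2FC -2.85, SE 0.36, adjusted p = 1.88e-08). Its median in air airways was 0.457 CPM, so with dexamethasone the smoke airways (median 0.410 CPM) stood at about the level of air.

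The promoters of class II genes carry a Y box, the site of the factor NF-Y. It was searched as CTGATTGG on both strands, from 250 bases before to 50 bases after each start in RefSeq promoters of GRCm38.p6. It stood in 4 of 18 promoters of the MHC class II and dendritic cell list that were in the table (22.2%), in 57 of 798 promoters of downregulated genes (7.14%) and in 804 of 12849 promoters of genes tested (6.26%). The windows of the genes given above are shown, on the strand of the gene, with the Y box in capitals, for H2-Aa (chr17:34287847-34287894, minus strand) and H2-Eb1 (chr17:34305785-34305832, plus strand).
H2-Aa: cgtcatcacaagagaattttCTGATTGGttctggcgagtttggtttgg
H2-Eb1: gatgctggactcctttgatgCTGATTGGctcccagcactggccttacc
A match describes letters and does not show that a factor sat there.

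Most lymphocyte genes were downregulated, and how many depended on the fit for T and NK cells. Of 35 T and NK cell genes, 33 were downregulated by limma, 16 by edgeR's quasi-likelihood test, 20 by DESeq2 and 15 with only the 20 libraries in the fit. Of 26 B and plasma cell genes, 18 were downregulated and 8 were not called. By limma 5.93% of all genes were downregulated. The medians were -1.53 and -1.55, and none of these genes separated the groups completely. Cd3e, a chain of the T cell receptor complex, ran from 4.68 to 20.7 CPM (median 8.80) under smoke and from 1.54 to 19.2 CPM (median 2.95) with dexamethasone (log2FC -1.21, SE 0.36, adjusted p = 0.018). In 7 of 10 treated libraries it lay below all untreated ones, and in X75 near their top. NK cell genes moved with less overlap: Klrd1, which encodes CD94, fell from a median of 3.62 to 1.04 CPM (log2FC -1.94, SE 0.31, adjusted p = 6.91e-06) and Gzma, a cytotoxic granule protease, from 15.2 to 1.83 CPM (log2FC -2.51, SE 0.50, adjusted p = 0.000337). Ncr1, the activating receptor NKp46, fell by 2.09 on the log2 scale, Gzmb by 1.97 and Prf1, or perforin, by 1.96. Icos, the costimulatory receptor of activated T cells, fell by 1.53, and Foxp3, the factor of regulatory T cells, by 1.84 with treated libraries from 0.0834 to 6.09 CPM.

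Among B cell genes, Cd79a, the signalling chain of the B cell receptor, fell from a median of 36.03 to 11.7 CPM (log2FC -1.81, SE 0.35, adjusted p = 0.00022), Ms4a1, which encodes CD20, from 44.1 to 13.3 CPM, and Cr2, the complement receptor of follicular B cells, from 21.7 to 3.68 CPM. The transcription factor Pax5 fell by 2.30 on the log2 scale. The immunoglobulin genes of plasma cells were unlike one another. Igha, the heavy chain of IgA, went from a median of 208 to 153.3 CPM (log2FC -0.95, adjusted p = 0.00715), Igkc was not called (log2FC -0.94, adjusted p = 0.0505), and neither was Ighm (log2FC -0.74, adjusted p = 0.248). Ighg1, the heavy chain of IgG1, stood at 12.6 to 388 CPM under smoke and 0.906 to 45.4 CPM with dexamethasone (log2FC -2.67, SE 0.50, adjusted p = 0.00013). Its range in air airways was 1.27 to 48.3 CPM.

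Several measures moved with the lymphocyte genes across libraries. The T and NK cell genes summed to 233.5 to 736 CPM under smoke and to 96.4 to 668 CPM with dexamethasone, and the 4 treated libraries with the highest sums, X75, X155, X135 and X95 (191.5 to 668 CPM), were also the 4 with the least surfactant and alveolar type II RNA, at 10544 to 16677 CPM against 20727 to 34292 CPM in the other 6. Thymocyte genes had sums of 19.0 to 68.2 CPM under smoke and 10.7 to 57.04 CPM with dexamethasone, and 4 of 6 were downregulated. Dntt, the thymocyte enzyme terminal transferase, had at most 2 counts in any treated library, and Rag1, Rag2 and Ptcra were below the filter on low counts. The part of thymus or alveolar tissue in the lymphocyte values was not tested beyond the Sftpc term. With Sftpc as a term in the model, 23 of 35 T and NK cell genes and 17 of 26 B and plasma cell genes were downregulated, and all 8 erythroid and 23 of 27 MHC class II and dendritic cell genes. Cd4, Cd8a and Cd3e were not called by edgeR's quasi-likelihood test or DESeq2.

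Chemokines that draw lymphocytes and monocytes fell with them. Of 31 such genes 14 were downregulated, where 5.93% of all genes were, and none upregulated, with a median log2FC of -0.61. Ccl5, or RANTES, which draws T cells and is also made by them, ran from 7.16 to 58.4 CPM (median 19.3) under smoke and from 0.459 to 15.7 CPM (median 2.92) with dexamethasone (log2FC -2.91, SE 0.51, adjusted p = 4.65e-05), with 8 treated libraries below all untreated ones. Ccl8, a monocyte chemokine, was the member without overlap, at 9.10 to 46.6 CPM against 1.39 to 6.01 CPM (log2FC -2.02, SE 0.49, adjusted p = 0.0038). Ccl22, made by dendritic cells and read by CCR4, fell from a median of 30.9 to 9.41 CPM, where air airways stood at 10.4 CPM. Ccr7 and Cxcr5, which lead cells into lymphoid tissue, fell by 1.88 and 1.85 on the log2 scale. The interferon-induced chemokine Cxcl9 had a log2FC of -3.45 with an SE of 1.17 (adjusted p = 0.0468), and lost its call when single libraries were left out. Ccl2, Cxcl12 and Cxcl13 were not called, with log2FC of -0.28, -0.39 and -0.35.

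Most genes of the interferon response fell. Of 29 interferon response genes 22 were downregulated, 8 of them without overlap, where 5.93% and 0.35% of all genes were. None was upregulated, and all 29 had a negative log2FC, with a median of -0.95. Rsad2 (chr12:26442746-26456452), or viperin, an antiviral enzyme, ran from 5.82 to 11.47 CPM (median 7.15) under smoke and from 1.38 to 2.94 CPM (median 2.37) with dexamethasone (log2FC -1.74, SE 0.27, adjusted p = 4.06e-06). Isg15, the ubiquitin-like modifier, fell from 12.0 to 26.7 CPM to 4.99 to 9.68 CPM (log2FC -1.40, SE 0.24, adjusted p = 2.83e-05). Neither overlapped. Ube2l6, the enzyme that conjugates Isg15, ran from 41.3 to 62.8 CPM under smoke and from 21.5 to 32.9 CPM with dexamethasone (log2FC -1.06, SE 0.10, adjusted p = 3.41e-12). Gbp4, a guanylate-binding protein induced by interferon gamma, fell by 2.00 on the log2 scale, from 67.9 to 136.6 CPM to 13.3 to 57.5 CPM. Of the factors that carry the signal, Irf7 fell by 1.28 and Irf9 by 0.51, and Irf1 was not called (log2FC -0.25, adjusted p = 0.173). The list summed to 932.9 to 1340 CPM in PBS.CS and 643.1 to 949.9 CPM in PBS.CS.DEX, and air airways lay at 900.8 to 2021 CPM.

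A core of the interferon-stimulated response element, GAAA repeated with any 2 bases between the copies, stood on one strand or the other in 12 of 20 promoters of the interferon list (60%), in 497 of 12849 promoters of genes tested (3.87%), in 90 of 798 promoters of downregulated genes (11.3%) and in 9 of 460 of upregulated genes (1.96%). Without the interferon list, 82 of 784 downregulated promoters held it (10.5%). Windows are shown for 3 genes that did not overlap, from RefSeq on GRCm38.p6, on the gene's strand, with the element in capitals, which reads TTTC on the other strand: Isg15 (chr4:156200855-156200916, minus strand), Rsad2 (chr12:26456543-26456592, minus strand) and Ifit1 (chr19:34640765-34640833, plus strand), which encodes a sensor of foreign RNA and fell by 0.85 on the log2 scale.
Isg15: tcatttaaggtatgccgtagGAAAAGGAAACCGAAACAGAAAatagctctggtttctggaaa
Rsad2: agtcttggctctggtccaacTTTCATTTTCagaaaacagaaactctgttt
Ifit1: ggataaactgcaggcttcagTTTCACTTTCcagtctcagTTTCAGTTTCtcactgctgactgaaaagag
Isg15 holds 3 overlapping copies, Ifit1 holds 2 and Rsad2 holds 1.

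Proliferation genes were lower as well. Of 26 cell cycle genes 15 were downregulated, where 5.93% of all genes were, with a median log2FC of -0.60 and none upregulated. Mki67, the antigen Ki-67 of dividing cells, went from a median of 27.4 to 14.5 CPM (log2FC -0.71, SE 0.23, adjusted p = 0.0311), Birc5, or survivin, from 3.96 to 2.26 CPM, and Pcna, the DNA polymerase clamp, from 80.4 to 65.6 CPM (log2FC -0.23). In each the highest treated library lay within the untreated range. The number called was 7 without the PBS.CS.DEX library X55 and at most 18 without any other, and was 9 by edgeR's quasi-likelihood test.

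In the list of mast cell, basophil and eosinophil genes, 6 of 19 were downregulated (5.93% of all genes were), none was upregulated and the median log2FC was -0.34. The 6 became 4 by edgeR's quasi-likelihood test and by DESeq2. With only the 20 libraries in the fit 3 of 17 were called lower, and at a minimum of 10 CPM 2 of 8. Ccr3, the eotaxin receptor of eosinophils, went from a median of 1.77 to 0.224 CPM (log2FC -2.28, SE 0.54, adjusted p = 0.00252), Ear1, an eosinophil-associated ribonuclease, from 16.8 to 2.11 CPM (log2FC -2.27, SE 0.46, adjusted p = 0.000487), and Il1rl1, the IL-33 receptor ST2, from 8.93 to 5.62 CPM (log2FC -0.70, SE 0.19, adjusted p = 0.00854). For Ccr3 and Ear1, 7 of 10 treated libraries lay below all untreated ones.

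The listed genes of macrophages under smoke and of lipid handling responded unevenly. Of 28 smoke macrophage and lipid-handling genes, 5 were downregulated (5.93% of all genes were), 23 were not called and the median log2FC was -0.13. The 5 became 3 without the PBS.CS library X93, 1 with only the 20 libraries in the fit and 11 with Sftpc as a term. Mmp12, the macrophage elastase, stood at 11.1 to 43.4 CPM in air, 50.7 to 260 CPM under smoke and 25.3 to 114.2 CPM under smoke with dexamethasone (log2FC -1.19, SE 0.25, adjusted p = 0.000748). Spp1, or osteopontin, had medians of 55.4, 231 and 96.7 CPM in the same order (log2FC with dexamethasone -1.38, SE 0.32, adjusted p = 0.00193). Both overlapped between treated and untreated libraries and stayed above air in their medians. Ear2, an eosinophil-associated ribonuclease, fell by 1.31 on the log2 scale, Siglecf, the lectin of eosinophils and alveolar macrophages, by 1.11 and Ctss, an elastolytic cathepsin, by 0.48. Trem2, a lipid receptor of macrophages (log2FC -0.36, adjusted p = 0.311), Cd68 (-0.09, adjusted p = 0.828) and Ctsk (-0.12, adjusted p = 0.826) were not called.

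Neutrophil genes did not pass the test. None of 27 neutrophil chemokine, cytokine and granule genes was called by limma, and edgeR's quasi-likelihood test called 1 higher and 1 lower and DESeq2 1 higher and 3 lower. Other limma fits called members too, with 1 higher and 5 lower under quality weights and with Sftpc as a term, 2 lower at a minimum of 10 CPM, and up to 1 higher and 3 lower as single libraries were left out. Lcn2, the iron-binding lipocalin of neutrophils and stressed epithelium, had medians of 116.8 CPM in air, 712 CPM under smoke and 857 CPM with dexamethasone (log2FC 0.03, 95% interval -0.50 to 0.57). Cxcl5, which draws neutrophils through CXCR2, missed the threshold, with 32.9 to 156.6 CPM under smoke and 8.07 to 93.8 CPM with dexamethasone (log2FC -1.07, SE 0.37, adjusted p = 0.0563). Il1b (log2FC -0.76, adjusted p = 0.0587), Saa3, an acute phase protein (-0.84, adjusted p = 0.0796), and Tnf (-0.68, adjusted p = 0.103) were likewise not called, while S100a8 (-0.10) and Cxcl1 (-0.18) lay close to 0. A miss of the threshold does not show that levels were equal.

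The smoke-sensing pathways of the epithelium were not called either. None of 12 aryl hydrocarbon receptor targets and 1 of 25 NRF2 antioxidant genes passed: Slc7a11, the cystine importer, fell from a median of 28.9 to 17.3 CPM (log2FC -0.66, adjusted p = 0.0404), a call lost when any 1 of 11 libraries was left out. Cyp1a1, the receptor's main target, ran from 17.1 to 189.02 CPM under smoke and from 12.1 to 389 CPM with dexamethasone (log2FC 0.58, adjusted p = 0.53). Of 16 club cell and 22 ciliated cell genes none passed. Among 18 mucus and goblet cell genes 2 were downregulated, where 5.93% of all genes were, and 1 to 3 as single libraries were left out. Tff2, a trefoil peptide, fell from a median of 19.7 to 8.37 CPM (log2FC -1.38, SE 0.45, adjusted p = 0.0355) and Galnt6, a glycosyltransferase, by 0.57 on the log2 scale. The mucins Muc5ac (log2FC -0.41, adjusted p = 0.687) and Muc5b (0.11, adjusted p = 0.877) were not called.

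Transcripts that textbooks give as direct targets of the receptor showed little. Of 46 glucocorticoid-induced genes 2 were upregulated and 2 downregulated, the median log2FC was 0.02, and background rates were 3.29% higher and 5.93% lower. As single libraries were left out, 0 to 5 were upregulated and 0 to 2 downregulated. The upregulated members were Tfcp2l1, an epithelial transcription factor (log2FC 0.50, adjusted p = 0.0322), and Tgm2, transglutaminase 2 (0.23, adjusted p = 0.0415). The downregulated ones were Dusp1, the phosphatase that shuts off p38 (-0.39, adjusted p = 0.037), and the stress gene Sesn1 (-0.24, adjusted p = 0.0265). Fkbp5, the receptor's co-chaperone and its best known target, ran from 25.1 to 71.4 CPM (median 39.9) under smoke and from 35.2 to 86.8 CPM (median 40.7) with dexamethasone (log2FC 0.16, SE 0.21, adjusted p = 0.725). Tsc22d3, which encodes GILZ, ran from 96.2 to 135.7 CPM under smoke, while with dexamethasone 7 libraries lay below and 2 above that range, from 60.4 to 244 CPM (log2FC -0.24, adjusted p = 0.563). Zbtb16 was not called (log2FC -0.67, adjusted p = 0.258), and Nr3c1 itself stayed at a median of 167.6 against 165.02 CPM. Among 20 genes of the receptor, its cofactors and steroid-converting enzymes, H6pd, which feeds the enzyme that regenerates active glucocorticoid, was upregulated from a median of 138.1 to 170 CPM (log2FC 0.36, SE 0.08, adjusted p = 0.00293).

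**Figure D3:**
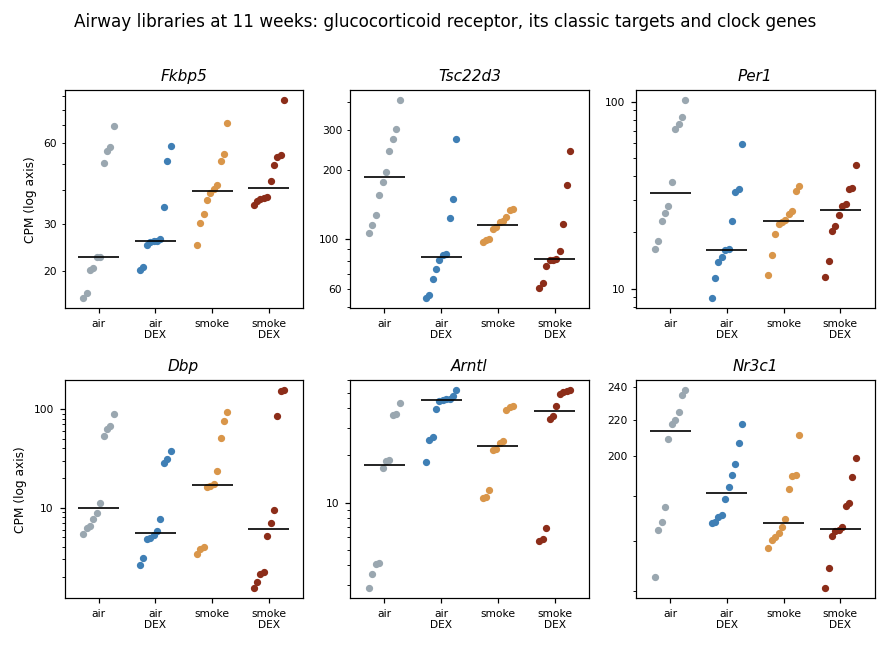
Levels in CPM, on log axes, of the glucocorticoid receptor Nr3c1, its targets Fkbp5, Tsc22d3 and Per1 and the clock genes Dbp and Arntl, 1 point per airway library with a bar at the median. Dbp and Arntl fall into bands within every group, and under smoke with DEX 3 libraries stand apart at 85.7 to 156.3 CPM of Dbp.

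The time of day at which tissue was taken is not labelled, and the clock genes spread widely. Dbp, an output gene of the clock, ran from 3.39 to 94.5 CPM under smoke and from 1.52 to 156.3 CPM with dexamethasone, and Arntl, which encodes the clock activator BMAL1, from 10.6 to 41.4 CPM and from 5.69 to 51.96 CPM. None of 20 clock genes was called (Per1 log2FC 0.13, adjusted p = 0.862), and edgeR's quasi-likelihood test and DESeq2 called none. In air, by contrast, dexamethasone upregulated 2 of the 20 clock genes and downregulated 6, with a median log2FC of -0.58. With the ratio of Arntl to Dbp as a term, 589 genes were upregulated and 1039 downregulated under smoke, of which 542 and 1013 were among those called without it. With the same term, the effect differed between smoke and air for 11 genes, against 8 without it. The part of sampling time in the differences between smoke and air was not tested beyond this term.

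The palindrome of the glucocorticoid response element, searched on both strands as GNACA and TGTNC with any 3 bases between them, stood in 5 of 40 promoters of the glucocorticoid-induced list (12.5%), in 55 of 12849 promoters of genes tested (0.428%), in 3 of 460 upregulated (0.652%) and in 4 of 798 downregulated promoters (0.501%). Its core ACANNNTGT, which every such palindrome contains, stood in 18 of 460 upregulated (3.91%), 58 of 798 downregulated (7.27%) and 727 of 12849 promoters of genes tested (5.66%). Windows are shown for Sgk1 (chr10:21993682-21993734, plus strand), a kinase that opens sodium channels, and Mt1 (chr8:94178975-94179027, plus strand), metallothionein 1, which hold the palindrome and were not called (log2FC -0.04 and 0.08, adjusted p = 0.901 and 0.871), and for Tinagl1 (chr4:130174917-130174969, minus strand), a matrix protein gene that was upregulated (log2FC 0.58, adjusted p = 0.00689). Letters are RefSeq's for GRCm38.p6 on the gene's strand, and capitals mark the palindrome.
Sgk1: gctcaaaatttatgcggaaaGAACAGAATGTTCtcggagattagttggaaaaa
Mt1: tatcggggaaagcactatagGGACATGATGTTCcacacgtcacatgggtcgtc
Tinagl1: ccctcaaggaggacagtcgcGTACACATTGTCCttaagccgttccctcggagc
Elements farther from the start were not searched.

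The upregulated genes changed by small steps, with a median log2FC of 0.32, against -0.77 for those downregulated. Ano1 (chr7:144588549-144751974), the calcium-activated chloride channel of airway epithelium and smooth muscle, had the smallest p of them: 70.6 to 112.3 CPM (median 88.6) under smoke and 108.9 to 173.5 CPM (median 130) with dexamethasone (log2FC 0.61, SE 0.08, adjusted p = 6.86e-09). In 9 of 10 treated libraries it lay above all untreated ones. Ppl, or periplakin, of the cornified envelope and desmosome, rose from a median of 58.7 to 99.9 CPM (log2FC 0.76, SE 0.11, adjusted p = 2.77e-07), Evpl, its partner envoplakin, by 0.62, and the envelope genes Ivl and Sprr1a by 1.74 and 1.69 on the log2 scale from levels under 1 CPM. Adssl1, of the purine nucleotide cycle, and Wnt9a, a Wnt ligand, rose by 0.76 and 0.53. The 5 genes without overlap were Golga2, a Golgi matrix protein (65.5 to 75.5 CPM against 80.7 to 97.8 CPM), Slc1a3, a glutamate transporter (29.7 to 40.4 CPM against 40.6 to 53.8 CPM), Tom1l1, Dcaf6 and Serpina3k. Serpina3k, a serine protease inhibitor, changed most among them, at 0.0299 to 0.267 CPM under smoke and 0.314 to 1.79 CPM with dexamethasone (log2FC 2.64, SE 0.58, adjusted p = 0.00107).

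The steepest rises were in genes of low level. Pnmt, which makes adrenaline and is a known glucocorticoid target of the adrenal medulla, was at 0 to 0.539 CPM under smoke and 0.383 to 1.41 CPM with dexamethasone (log2FC 2.72, SE 0.46, adjusted p = 2.05e-05). Chia1, the acidic chitinase of the airway, was the most abundant of the 10 largest rises named, at 48.1 to 115.3 CPM (median 72) and 101.7 to 383 CPM (median 181.04), with a log2FC of 1.37 (SE 0.29, adjusted p = 0.000891). Ereg, a ligand of the epidermal growth factor receptor, rose by 1.63, Agt, angiotensinogen, by 1.32 and Fst, follistatin, the binder of activin, by 1.03. Ptgds, prostaglandin D2 synthase, rose by 1.61 and lost its call when single libraries were left out.

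Some epithelial and matrix genes were upregulated, where 3.29% of all genes were, in counts that moved with single libraries. Of 24 ion transport and bronchomotor receptor genes 3 were upregulated: Ano1, Scnn1a, the alpha chain of the epithelial sodium channel, from a median of 227 to 341 CPM (log2FC 0.53, SE 0.14, adjusted p = 0.00628), and Slc12a2, the chloride loader NKCC1, from 224 to 279 CPM (0.35, adjusted p = 0.0226). Scnn1b, Scnn1g and Cftr had log2FC of 0.35, 0.32 and 0.50 and were not called, and Chrm3, the muscarinic receptor of smooth muscle (0.02), lay close to 0. The 3 upregulated genes became 5 without the PBS.CS.DEX library X135 or X155, 7 without X75 and 1 with only the 20 libraries in the fit. Of 38 collagen, matrix and matrix protease genes 5 were upregulated, among them Timp3, the matrix-bound protease inhibitor, from 533 to 688 CPM (median 610) to 617 to 1290 CPM (median 1025, log2FC 0.66, SE 0.12, adjusted p = 4.92e-05), the basement membrane collagens Col4a1 (0.64, adjusted p = 0.0156) and Col4a2 (0.68, adjusted p = 0.0252), and Col6a1 (0.51, adjusted p = 0.000629). Postn, or periostin, was downregulated (-0.45, adjusted p = 0.0098), and the fibrillar collagens Col1a1 (0.10) and Col3a1 (-0.33) were not called. The 5 upregulated genes became 3 without X35, without X55 and with only the 20 libraries. Of 23 cholesterol and fatty acid synthesis genes 4 were upregulated, among them Acaca by 0.79, Sqle by 0.33 and Hmgcs1 by 0.31 on the log2 scale. The 4 became 1 without X15, X93, X113, X135 or X174, 2 without X35, X55 or X155, and 1 with only the 20 libraries. Of 12 surfactant and alveolar type II genes, Sftpb rose from a median of 1293 to 2784 CPM (0.76, SE 0.19, adjusted p = 0.00527) and Abca3, the lipid pump of lamellar bodies, from 364 to 567 CPM (0.51, adjusted p = 0.00455). The whole alveolar type II list summed to 8842 to 25480 CPM under smoke and 10540 to 34290 CPM with dexamethasone, and the part of unequal alveolar tissue in these rises was not tested beyond the Sftpc term. With Sftpc as a term, 5 of 12 were upregulated, with only the 20 libraries none, without X53, X73 or X135 4, without X75 5 and without X155 6. All 14 smooth muscle, 16 cardiac muscle, 13 adipose and 11 alveolar type I genes missed the threshold in the main 80-library fit, as did 14 of 15 endothelial genes. The endothelial gene called was Vcam1, the leukocyte adhesion molecule, which fell from a median of 105.05 to 77.4 CPM (log2FC -0.39, adjusted p = 0.00853). With Sftpc as a term 6 adipose, 2 cardiac muscle and 1 smooth muscle genes were higher, and 1 alveolar type I and 4 endothelial genes lower. With Ucp1 as a term 6 adipose genes were higher, and with quality weights 2 alveolar type I genes. Of 11 basal and squamous epithelial genes Ivl and Sprr1a were called. Of 9 skeletal muscle genes Myh7, a slow myosin, rose by 0.75 on the log2 scale and Tnni2, a fast troponin, fell by 0.62, and of 13 Schwann cell and neuronal genes Mal rose by 0.38. None of 12 cartilage, 6 thyroid and 14 early response genes, the last a sign of handling, was called.

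The same drug was given to mice in room air, so the effect under smoke could be set against the effect in air with no library shared. Of the 593 genes upregulated under smoke 583 had the same direction in air and 350 were called there (59%, which is 29.9% of the 1171 upregulated in air, 6.5% of genes tested), and of the 1069 downregulated genes 1039 had the same direction and 605 were called (56.6%, and 58.1% of the 1042 downregulated in air, 5.78% of genes tested). No gene was called in opposite directions. Across the 18015 genes the log2FC correlated with r = 0.692, a description over genes, which are not independent replicates. The median change under smoke and in air was -2.97 and -2.37 in erythroid genes, -1.53 and -1.17 in T and NK cell genes, -1.15 and -0.90 in MHC class II and dendritic cell genes and -0.95 and -0.66 in interferon response genes. The order was the other way in mast cell, basophil and eosinophil genes (-0.34 and -0.58) and in mucus and goblet cell genes (-0.36 and -0.66). The difference was not called for any single member of these lists. Some other medians changed sign between the settings. Under smoke and in air they were 0.12 and -0.58 in clock genes and -0.29 and 0.34 in neutrophil genes. In smoke macrophage and lipid-handling genes they were -0.13 and 0.41. In air 11 of these 28 genes were upregulated and 2 downregulated, against 0 and 5 under smoke. The difference was called for 1 member of the macrophage list and for none of the clock and neutrophil genes.

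**Figure D4:**
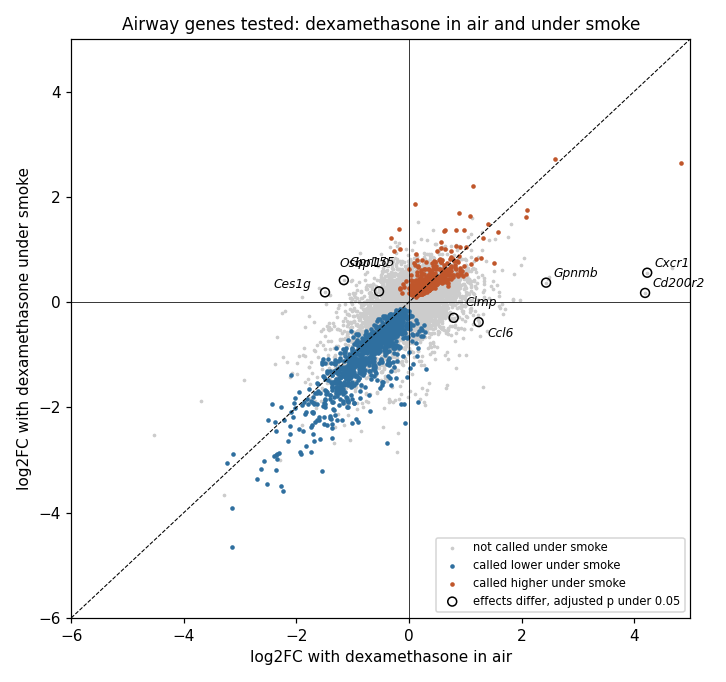
Log2FC with dexamethasone in air (horizontal axis) and under smoke (vertical axis) for 18015 airway genes, with genes called lower under smoke in blue, genes called higher in orange, the line of equal effects dashed and the 8 genes whose effects differed circled. Gpnmb, Cxcr1 and Cd200r2 lie far to the right near a change of 0 under smoke.

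The effect of dexamethasone differed between smoke and air for 8 genes (0.0444% of 18015, of which 0.0278% lower and 0.0167% higher under smoke), tested as an interaction term, while 774 had an unadjusted p under 0.05. Of the 8, 5 had a more positive log2FC in air than under smoke, and 4 of these are expressed by macrophages or neutrophils. Gpnmb, a glycoprotein of lipid-loaded macrophages, went from 9.93 to 34.7 CPM (median 22.9) in air to 60.6 to 211 CPM (median 117.7) in air with dexamethasone, but from 67.9 to 308 CPM (median 135.04) under smoke to 80.3 to 360 CPM (median 188.12) under smoke with dexamethasone. The effect under smoke was lower by 2.07 on the log2 scale (SE 0.37, adjusted p = 0.00292), with the libraries apart in air and overlapping under smoke. Cxcr1, a neutrophil chemokine receptor, went from a median of 1.03 to 18.3 CPM in air and from 7.00 to 10.7 CPM under smoke (difference -3.67, SE 0.79, adjusted p = 0.0334). Cd200r2, an inhibitory receptor family member of myeloid cells, was at 0 to 0.152 CPM in air, so its fold there depends on the handling of low counts (difference -4.02, SE 0.82, adjusted p = 0.018). Ccl6, a macrophage chemokine, went from 215 to 487 CPM in air and from 744 to 620 CPM under smoke (difference -1.62, SE 0.34, adjusted p = 0.0216), and Clmp, an epithelial adhesion molecule, from 10.8 to 20.2 CPM and from 36.9 to 29.6 CPM (difference -1.09, SE 0.19, adjusted p = 0.00292). All 5 stood higher in PBS.CS than in PBS.AIR. Both groups entered the interaction term that picked these genes, so this is no separate evidence.

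**Figure D5:**
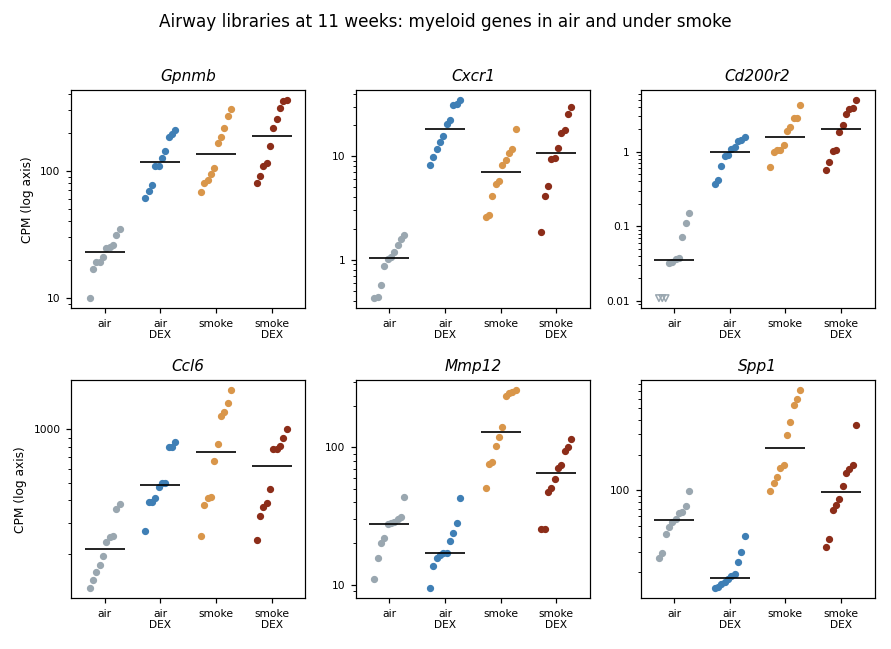
Levels in CPM, on log axes, of 6 myeloid genes in the 4 PBS airway groups, 1 point per library with a bar at the median and open triangles for libraries at 0. Gpnmb, Cxcr1, Cd200r2 and Ccl6 are higher with DEX in air and overlap under smoke, whereas Mmp12 and Spp1 are lower with DEX under smoke in their medians.

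The other 3 genes fell in air and were not called under smoke. Gpr155, a lysosomal cholesterol sensor, went from a median of 120 to 52.5 CPM in air and from 35.7 to 47.6 CPM under smoke (difference 1.57, SE 0.30, adjusted p = 0.0102), Ces1g, a carboxylesterase, from 11.7 to 3.77 CPM and from 8.52 to 7.91 CPM (1.68, SE 0.37, adjusted p = 0.0494), and Osbpl10, an oxysterol-binding protein, from 26.9 to 17.1 CPM and from 14.5 to 15.9 CPM (0.74, SE 0.14, adjusted p = 0.0102). Under smoke Gpr155 moved with Dbp, as the 3 treated libraries with the highest Dbp, X75, X95 and X115, had its 3 highest levels, at 98.4 to 145.5 CPM. Ctsd, the lysosomal protease cathepsin D, came next without passing (difference -0.88, adjusted p = 0.067).

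In mice that had received HDM beside smoke, dexamethasone upregulated 275 airway genes (1.53%) and downregulated 1083 (6.01%), 7.54% of genes tested in all. Of the genes downregulated in smoke mice 563 were called there too (52.7%, and 52% of 1083), and of those upregulated 95 (16.0%, and 34.5% of 275). No gene's effect differed between the 2 settings in the main limma fit, with 994 at an unadjusted p under 0.05, and edgeR's quasi-likelihood test and DESeq2 called none. List counts with HDM differed in size, which is not a test of the difference. With and without HDM, 6.01% and 5.93% of all genes were downregulated. For T and NK cell genes it was 12 and 33 of 35 (median log2FC -0.74 and -1.53), though the 33 was 16 by edgeR's quasi-likelihood test. For interferon response genes it was 8 and 22 of 29 (-0.46 and -0.95) and for cell cycle genes 26 and 15 of 26 (-1.155 and -0.60). For MHC class II and dendritic cell genes it was 19 and 23 of 27 (-0.845 and -1.15), and for erythroid genes all 8 in both (-3.42 and -2.97). Alas2 fell by 3.84 on the log2 scale with HDM against 3.01 without it, H2-Aa by 1.05 against 1.43 and Rsad2 by 1.46 against 1.74, while Ccl5, called without HDM, was not called with it (log2FC -0.77, adjusted p = 0.16).

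The parenchyma of smoke mice shared most of these calls. There 3080 of 18250 genes (16.9%) were called with dexamethasone, 7.39% higher and 9.49% lower, among them 851 of the 1069 genes downregulated in the airway (79.6%, and 49.6% of 1716) and 492 of the 593 upregulated (83%, and 36.6% of 1343), where the second share counts genes tested in the airway. In a fit of both tissues no gene's effect differed between them by limma, with 271 at an unadjusted p under 0.05, while edgeR's quasi-likelihood test called 1 and DESeq2 9. Ano1 rose by 0.68 on the log2 scale in parenchyma against 0.61 in airway, and Cd207 fell by 3.52 against 3.18. Airway and parenchyma may come from the same mice, which the library codes do not pair, so the tissues are not independent evidence.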

How the data were processed

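RNA of mouse airway and parenchyma was sequenced as single reads (203 libraries). The authors deposited 1 table of estimated counts per gene and library. Per the labels and the submitters' processing notes, reads were aligned with STAR 2.5.1b to mm10 and quantified with RSEM 1.2.31 and kallisto 0.44.0, and which of these made the table is not given in the sources used here. Estimated counts were rounded to whole numbers. The 80 airway libraries of week 11 entered 1 fit by limma-voom (limma 3.58.1, R 4.3.3) on TMM-scaled counts (edgeR 4.0.16), 10 libraries in each of 8 groups, with no covariate. A gene was tested when 9 or more libraries reached 0.34 CPM, the level of 10 counts at median depth (18015 genes), and genes were called at a Benjamini-Hochberg adjusted p under 0.05 over all of them. Tests were two-sided. Differences between settings were interaction terms, for tissue in a fit of 160 libraries. DESeq2 1.42.0, edgeR's quasi-likelihood test, other filters and scalings, quality weights, other sets of libraries and leaving out each library were alternatives. Clock phase, Sftpc, Ucp1 and blocks of library codes as terms were added after seeing the data.

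Groups follow sample titles. Named genes were the 10 largest rises and 10 largest falls with a mean of at least 1 CPM in the higher group, the 5 smallest p in each direction, in each list up to 4 called members with the smallest p (or the 2 smallest p and the 2 highest levels where none was called), for each difference of effects the 5 smallest p in each direction, and check genes of treatment and smoke. Others were chosen after their values were seen. The comparison, its gene lists and motifs were chosen with earlier results of these data known. Some genes that the rule names are not reported here.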

Additional observations from a re-analysis of the deposited data

Results flagged for a closer look

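The effect of dexamethasone under smoke differed from that in air, by the interaction term, for 8 genes. The difference (smoke less air) was -2.07 on the log2 scale for Gpnmb, -4.02 for Cd200r2, -3.67 for Cxcr1, -1.62 for Ccl6, -1.09 for Clmp, 1.57 for Gpr155, 1.68 for Ces1g and 0.74 for Osbpl10.

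Over 89 genes and list sums tested in each of 2 groups there were 4 cases, fewer than chance alone gives, in which a single library stood apart from the other 9 of its group, where the gap to the next library, as a share of the group's range, passed Dixon's critical value, which chance passes in about 1 in 20 groups. Fkbp5 was at 86.8 CPM in the PBS.CS.DEX library X175 and at most 54.4 CPM in the others (share 0.517). Slc23a3 was at 0.235 CPM in the PBS.CS library X93 and at least 0.679 CPM in the others (share 0.577). Club cell secretory genes summed to 47940 CPM in the PBS.CS library X73, against at least 60880 CPM (share 0.471), and cardiac muscle genes to 279.3 CPM in the PBS.CS.DEX library X195, against at least 1005 CPM (share 0.598).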

How the results depend on the processing

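Library codes run in blocks of 20 that hold each group once, which no label calls a pairing. Deviations from the group means correlated from -0.406 to 0.587 within the 10 pairs of a block, 4 of them below 0 and 6 over 0.1. Of the untreated libraries 3 correlated best with their own partner. These values were mixed and no label pairs the libraries, so they were not treated as paired in the main fit. A replicate block on these codes, added after seeing the data, gave 1030 upregulated and 1366 downregulated genes, 23 differing between smoke and air, 0 between HDM and PBS and 1 between tissues. The number of upregulated genes (593) was 381 without a filter on low counts, 1091 with quality weights, 1123 with Sftpc as a term and 238 with only the 20 libraries in the fit, and that of downregulated genes (1069) stayed within 1.5 times. At a log2FC of at least 1 (24 genes) it was 2 at a minimum of 10 CPM, 40 with quality weights, 87 with Sftpc, 47 with Ucp1 and 12 with only the 20 libraries, and at most -1 (389) the number at 10 CPM was 40.6% of the main one. The difference between smoke and air (8 genes) was called for 25 genes by DESeq2, 33 with Sftpc, 85 with Ucp1 and 15 in the 160-library fit. That between HDM and PBS (0) was 1 without a filter and 1 with quality weights, and that between tissues (0) was 1 by edgeR, 9 by DESeq2, 1 with Sftpc and 3 with Ucp1. Leaving out each library gave 322 to 904 upregulated and 853 to 1220 downregulated genes, and 18 to 34 and 304 to 471 past a log2FC of 1. Causes of these shifts were not tested. No named gene changed direction while called. Depth limits genes under 1 CPM, such as Serpina3k, Pnmt and Ivl.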
